A study of Homo sapiens with 18 samples.

Results

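The protein kinases of mitosis PLK1, AURKA, BUB1, TTK and NEK2 and the phosphatase CDC25C were followed in Cal51, a human breast cancer cell line, after drug treatment. They are 6 of the 3647 genes that any of 3 deposited tables lists, and they were taken by gene name. The tables list only genes that the authors called against DMSO, so the members were in effect chosen on the values of these contrasts, and those values are described here without a test.

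The treated cells received fenofibrate plus ezetimibe (here called the combination), ezetimibe, or fenofibrate for 8 h, and the control cells received the solvent DMSO for the same time. Ezetimibe inhibits the sterol transporter NPC1L1, and fenofibrate activates the nuclear receptor PPARα. Each of these 4 groups had 3 libraries, and the labels name no genetic change in any of them. The labels give no dose and do not say whether replicates came from different cultures, so p-values measure the spread between libraries, which may be technical. The other 6 of the 18 libraries, PKM2 KO cells and their control, are not analysed here. Each table holds 1 treated group beside the shared 3 DMSO libraries. It keeps a gene where the authors' log2 fold change passed 1 in size at an adjusted p under 0.05. A gene that is not listed can have changed less, can have failed the authors' test or can have been too low to test.

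The 6 proteins act at the entry into mitosis or in its spindle checkpoint. AURKA activates PLK1, PLK1 in turn activates CDC25C, and CDC25C removes the inhibitory phosphates from CDK1 so that cyclin B-CDK1 becomes active. NEK2 separates the centrosomes before the spindle forms, and TTK (also called MPS1) and BUB1 are kinases of the spindle checkpoint, which delays anaphase until the chromosomes are attached. Their transcripts are known to peak in G2 and M phase, when the MuvB complex with B-MYB and FOXM1 acts at an element called CHR and NF-Y binds CCAAT boxes in the promoters.

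The promoters are shown because all 6 genes were listed as lower with ezetimibe and because the CHR and CCAAT elements are what such genes are known to share. RefSeq (GRCh38.p14) gave promoter windows for 4 of the 6 members, PLK1, BUB1, NEK2 and CDC25C. The 250 bases before the annotated start are printed below 5′ to 3′ on the gene's strand, and capitals mark TTTGAA or TTTAAA (forms of the CHR) and CCAAT, searched on both strands (CCAAT on the other strand reads ATTGG). No marked elements overlap in these windows. The RefSeq starts lie inside the gene spans that the tables give for these 4 genes.
PLK1 (chr16:23678639-23678888, plus strand): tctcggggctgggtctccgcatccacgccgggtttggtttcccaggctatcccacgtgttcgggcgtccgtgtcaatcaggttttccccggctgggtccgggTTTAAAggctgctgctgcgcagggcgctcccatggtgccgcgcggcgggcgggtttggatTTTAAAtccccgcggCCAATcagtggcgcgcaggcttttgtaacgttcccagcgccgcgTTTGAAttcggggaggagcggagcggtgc
BUB1 (chr2:110678064-110678313, minus strand): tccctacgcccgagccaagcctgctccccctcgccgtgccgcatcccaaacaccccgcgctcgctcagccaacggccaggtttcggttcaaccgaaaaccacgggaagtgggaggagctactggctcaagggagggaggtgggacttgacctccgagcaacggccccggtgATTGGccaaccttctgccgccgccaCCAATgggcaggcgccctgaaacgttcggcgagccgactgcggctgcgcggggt
NEK2 (chr1:211675622-211675871, minus strand): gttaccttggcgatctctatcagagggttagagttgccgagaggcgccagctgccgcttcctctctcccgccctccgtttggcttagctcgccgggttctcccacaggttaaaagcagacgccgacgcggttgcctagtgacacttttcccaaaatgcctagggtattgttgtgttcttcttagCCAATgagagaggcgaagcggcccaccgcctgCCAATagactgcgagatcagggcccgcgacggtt
CDC25C (chr5:138331805-138332054, minus strand): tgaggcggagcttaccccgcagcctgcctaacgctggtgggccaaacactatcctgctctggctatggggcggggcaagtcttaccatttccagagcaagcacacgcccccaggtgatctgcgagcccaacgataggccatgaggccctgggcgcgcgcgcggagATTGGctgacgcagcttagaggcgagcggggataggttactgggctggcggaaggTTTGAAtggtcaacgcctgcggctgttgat

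The PLK1 window held 1 TTTGAA, which began 29 bases before the start, 2 TTTAAA and 1 CCAAT. RefSeq gave 4 windows for CDC25C, and the window shown is the only 1 of the 4 that held TTTGAA. It held 1 TTTGAA, 30 bases before the start, and 1 CCAAT at 85 bases. Another CDC25C window, ending at 138332127, held 3 CCAAT, and the remaining 2 held none of these motifs. Of these 2, the window from 138338356 adjoins the end of the deposited CDC25C span, 138338355. The window shown lies inside that span. BUB1 and NEK2 each held 2 CCAAT, at 79 and 54 bases before the start in BUB1 and at 66 and 34 bases in NEK2, and neither TTTGAA nor TTTAAA was in their windows. Of all 35116 RefSeq windows of this length 13.3% held at least 1 TTTGAA, 11.3% at least 1 TTTAAA, 32% at least 1 CCAAT and 9.53% at least 2 CCAAT. These shares are per window and cannot be set against a window shown as 1 of 4, as for CDC25C. A match of letters is a description and says nothing of whether a factor was bound.

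With ezetimibe all 6 members were listed as lower, to between 41.9% and 48.1% of the DMSO level. With the combination only TTK was listed, also as lower, and with fenofibrate none was. As background, of the genes behind the adjusted p-values 0.772% were listed as lower with ezetimibe and 2.7% as higher. With the combination 7.27% were lower and 10.3% higher, and with fenofibrate 0.0737% were lower and 0.761% higher. How many genes stood behind each adjustment had to be worked out from p-value ranks. Nothing is read from these shares for the members, since they were taken from the tables. The authors' deposited log2 fold changes of the 6 members with ezetimibe had a median of -1.12, against -1.19 over all 105 genes listed as lower in that table. A lower level in these bulk samples can mean fewer cells in G2 and M phase or less RNA per cell, which cannot be told apart here.

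Values are normalised read counts from the ezetimibe table, each close to a number of reads (the authors' factor per library ran from 0.936 to 1.09). Among the 2 kinases that drive entry into mitosis, PLK1 (ENSG00000166851, chromosome 16, 23677656 to 23690367 in hg38; all 6 members are protein-coding) had the most reads. It had 1932, 1766 and 2039 in the 3 ezetimibe libraries, against 4123, 3838 and 3979 in the 3 DMSO libraries. The ezetimibe libraries were all low and the groups did not overlap, the lowest DMSO library being 1.88 times the highest ezetimibe library. The mean was 1912 ± 137 with ezetimibe and 3980.0 ± 142 with DMSO (SD, n = 3 each), and the log2 difference was -1.06 ± 0.07 (SE from limma). PLK1 lay just inside the threshold of the authors' deposited table, at a log2 fold change of -1.06, and 84.8% of the genes listed there as lower had a larger fall. Genes just outside the threshold are not in the tables.

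AURKA (ENSG00000087586, chromosome 20, 56369389 to 56392337), the centrosomal kinase upstream of PLK1, had 1063, 1066 and 1078 in the ezetimibe libraries, against 2584, 2464 and 2607 in the DMSO libraries. The ezetimibe libraries lay close together and below every DMSO library, and AURKA had the widest gap between the groups of the 6 members, 2.29 times. Its mean was 1069 ± 8.10 with ezetimibe and 2551 ± 76.6 with DMSO (SD, n = 3 each), a log2 difference of -1.25 ± 0.07. That was also the largest fall of the 6, and 37.1% of the genes listed as lower in the authors' deposited table fell further. The SD of AURKA among the ezetimibe libraries was 0.757% of the mean, under the 3.06% that counting error alone would give, and BUB1 and TTK were likewise under it with ezetimibe, so the SD of 3 libraries can understate the error.

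CDC25C (ENSG00000158402, chromosome 5, 138285265 to 138338355), the phosphatase that PLK1 activates, was the lowest of the 6. It had 129, 90.8 and 84.6 in the ezetimibe libraries, against 221, 202 and 231 in the DMSO libraries. The first ezetimibe library was the highest of its group, and the groups did not overlap. The mean was 101 ± 24.0 with ezetimibe and 218 ± 14.9 with DMSO (SD, n = 3 each), a log2 difference of -1.12 ± 0.17, the least precise of the 6. Leaving out 1 library moved it between -1.30 and -1.002.

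The 2 checkpoint kinases fell by similar amounts. BUB1 (ENSG00000169679, chromosome 2, 110637698 to 110678114), which recruits checkpoint proteins to kinetochores, had 999, 943 and 982 in the ezetimibe libraries, against 2136, 1992 and 2322 in the DMSO libraries. No library of one group reached the other, and the means were 975 ± 28.8 with ezetimibe and 2150.2 ± 165 with DMSO (SD, n = 3 each), a log2 difference of -1.14 ± 0.08. TTK (ENSG00000112742, chromosome 6, 80003887 to 80042527), the kinase at the head of the checkpoint, had 464, 498 and 473 in the ezetimibe libraries, against 908, 889.8 and 1232 in the DMSO libraries. DMSO replicate 3 stood above the other two, while the ezetimibe libraries lay close together. The TTK means were 478 ± 17.8 with ezetimibe and 1010.1 ± 193 with DMSO (SD, n = 3 each), a log2 difference of -1.06 ± 0.12. Without that DMSO library it was -0.91, short of the listing threshold of 1.

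NEK2 (ENSG00000117650, chromosome 1, 211658657 to 211675630), the kinase of centrosome separation, had 453, 525 and 592 in the ezetimibe libraries, against 1219, 1080.4 and 1275 in the DMSO libraries. The ezetimibe libraries spread more than those of AURKA or BUB1, and the groups did not overlap. The means were 523 ± 69.6 with ezetimibe and 1191 ± 100.1 with DMSO (SD, n = 3 each), a log2 difference of -1.19 ± 0.11.

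**Figure D1:**
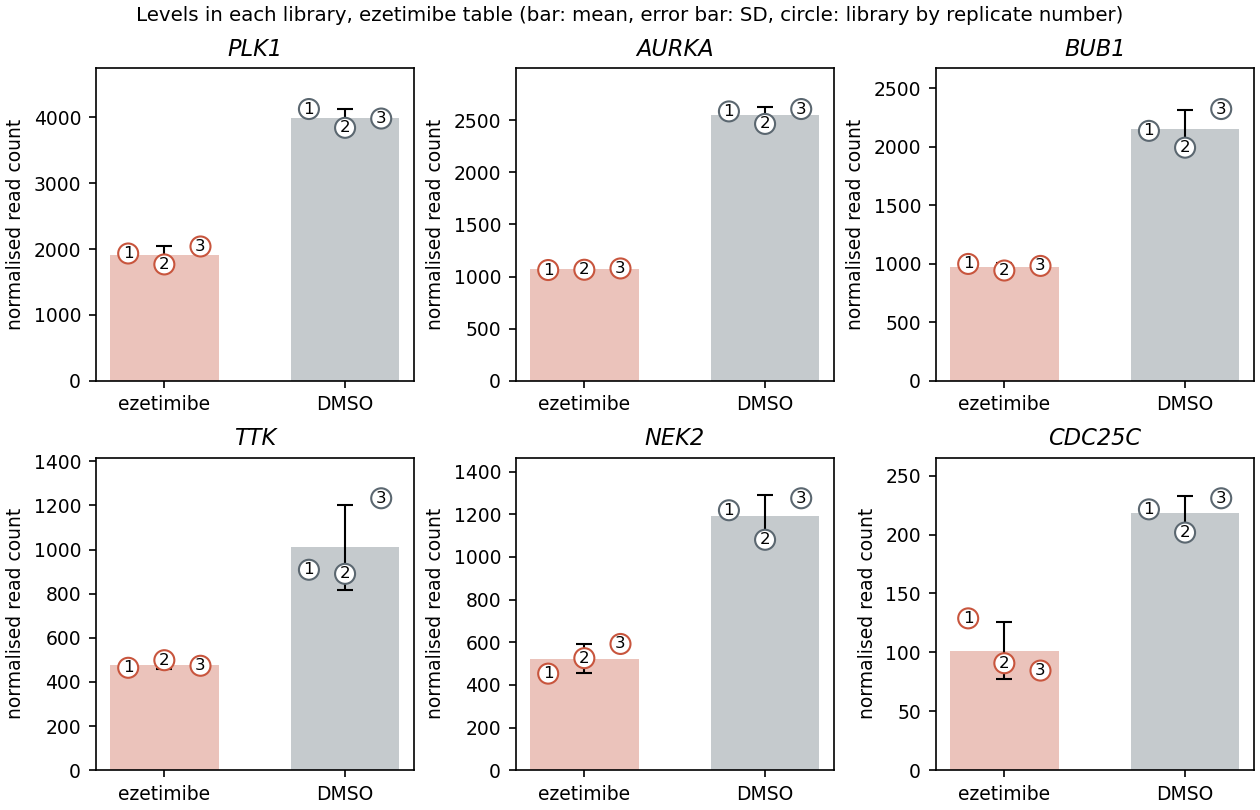
Normalised read counts (vertical axis, from 0) of the 6 members in the ezetimibe table, with a bar for the mean, an error bar for the SD and a numbered circle for each of 3 libraries of ezetimibe and DMSO cells. In every panel all ezetimibe circles lie below all DMSO circles, and DMSO replicate 3 of TTK, at 1232, stands above the other two.

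The groups did not overlap in 6 of 6 members. The same held for 99% of all genes listed as lower with ezetimibe, so it does not set the members apart. The log2 differences of the 6 members spanned 0.19, from -1.25 for AURKA to -1.06 for PLK1, while their standard errors ran from 0.07 to 0.17. Neighbours in the order AURKA, NEK2, BUB1, CDC25C, TTK and PLK1 were closer than their errors. Among the DMSO libraries, DMSO replicate 2 was the lowest of its group in 6 of 6 members and DMSO replicate 3 was the highest in 5 of 6, with PLK1 as the exception. Over all 105 genes listed as lower with ezetimibe these shares were 54.3% and 49.5%, so the order is not a trait of the members alone. With ezetimibe the order varied by gene, and ezetimibe replicate 3 was the highest in 3 members and the lowest in 1.

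Levels can be compared between genes only per length, and the deposited gene lengths ran from 2928 bases for AURKA to 6032 bases for BUB1. Whether these lengths match the transcripts present in the cells was not tested. For PLK1 the deposited length was 4760 bases, and its deposited span starts at 23677656, before the end of its RefSeq window at 23678888. The order of the genes and the ratios between genes given here therefore hold only for the deposited lengths. Per kb PLK1 had 402 ± 28.8 normalised read counts with ezetimibe and 836 ± 29.9 with DMSO, and AURKA had 365 ± 2.77 with ezetimibe and 871 ± 26.2 with DMSO (SD, n = 3 each). These 2 genes were the highest of the 6. In the ezetimibe libraries PLK1 lay above AURKA without overlap (371 to 428 against 363 to 368 per kb), whereas in the DMSO libraries their ranges overlapped (806 to 866 against 841 to 890.2 per kb). NEK2 followed at 169 with ezetimibe and 385 with DMSO, and BUB1 at 162 with ezetimibe and 356 with DMSO. The ranges of NEK2 and BUB1 overlapped within each group. TTK had 104 with ezetimibe and 221 with DMSO per kb, and CDC25C had 30.4 with ezetimibe and 65.3 with DMSO. The level of PLK1 per deposited length was 13.2 times that of CDC25C with ezetimibe and 12.8 times with DMSO.

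**Figure D2:**
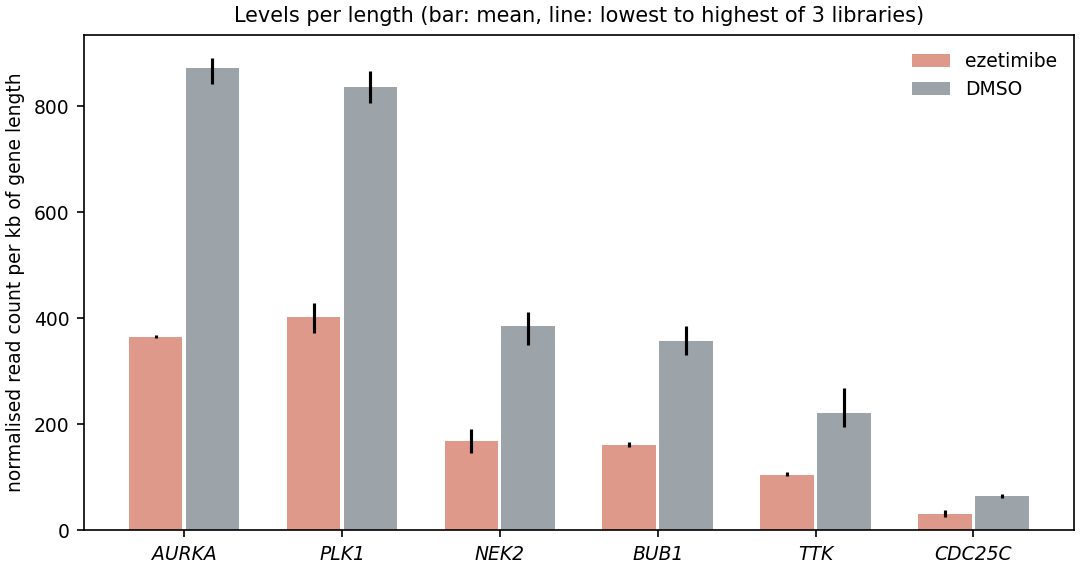
Mean normalised read counts per kb of deposited gene length (vertical axis, from 0) of the 6 members in ezetimibe and DMSO cells, with a line from the lowest to the highest of 3 libraries. PLK1 and AURKA lead in both groups, and CDC25C is the lowest at 30.4 with ezetimibe and 65.3 with DMSO.

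With the combination TTK was the single member listed. On the scale of the combination table it had 483, 497 and 451 in the combination libraries, against 905, 887 and 1231 in the DMSO libraries. The combination libraries were all lower than every DMSO library, as in 99.3% of the genes listed as lower there. The mean was 477 ± 23.5 with the combination and 1008 ± 193 with DMSO (SD, n = 3 each), a log2 difference of -1.06 ± 0.14. Within the combination table this was a small fall. In the authors' deposited table the log2 fold change of TTK was -1.08, 87.9% of the 1450 genes listed as lower fell further, and their median was -1.44. Both treatments share the DMSO libraries, so DMSO replicate 3 weighs on both, and without it the log2 difference with the combination was -0.91.

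The combination was set against ezetimibe directly over the 359 genes in both tables. A gene enters this contrast only where both tables list it, so TTK is here because it changed past the threshold with both treatments, and its difference is given as a description. The DMSO libraries, present in both tables, gave the factor between the scales (1.00). TTK had 485, 498 and 452 in the combination libraries, against 464, 498 and 473 in the ezetimibe libraries. The ranges overlapped, and the means were 478 ± 23.5 with the combination and 478 ± 17.8 with ezetimibe (SD, n = 3 each). The log2 difference, combination minus ezetimibe, was -0.00 ± 0.13 (SE from limma, 95% interval -0.29 to 0.28), and changes of TTK up to the ends of that interval cannot be told from none. As background, limma called 63.2% of the 359 genes at an adjusted p under 0.05, and 50% of the 72 listed as lower in both tables. Genes that fell by less than the threshold with the combination are missing from those 72, so no direction is read from them. Combination replicate 1 stood apart from replicates 2 and 3 across the genes listed with the combination (chi-square per gene of 24.5 and 17.5 in those pairs, against 2.86 between replicates 2 and 3). Over the genes listed with the combination, DMSO replicates 2 and 3 differed by a similar amount (23.2). These values cannot be set against those of the ezetimibe libraries, which cover other genes. Without combination replicate 1 the TTK difference was -0.01.

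The 5 other members had no combination value, and how far they moved is therefore unknown. For the same reason none of the 6 has a value with fenofibrate, whose table of 102 genes lists a single mitotic gene of the lists below, the kinetochore motor CENPE, as lower (606 ± 157 against 1337 ± 207 with DMSO, SD, n = 3 each).

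**Figure D3:**
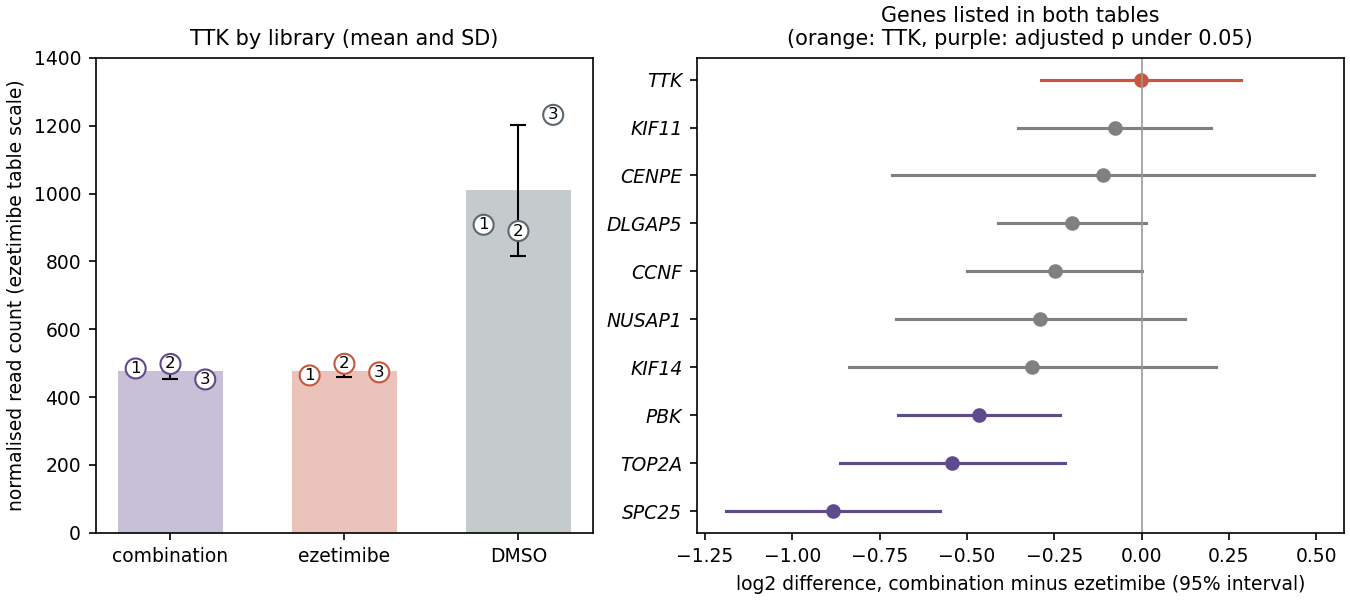
Left, normalised read counts of TTK on the scale of the ezetimibe table in combination, ezetimibe and DMSO cells (bar, mean; error bar, SD; circles, 3 libraries by replicate number). Right, the log2 difference between combination and ezetimibe with its 95% interval for TTK and the 9 list genes in both tables, where TTK lies at -0.00 and PBK, TOP2A and SPC25 have intervals below 0.

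Lists of related genes were counted in each table beside the members, with the direction and log2 fold change of the authors' deposited tables. The shares over all genes to read these counts against are 0.772% lower and 2.7% higher with ezetimibe, and 7.27% lower and 10.3% higher with the combination. In lists of this size a count of 0 with ezetimibe is close to that share and is no result about the list. Of 15 other kinases of mitosis 1 was listed with ezetimibe, PBK, a kinase of dividing cells (log2 -1.02). With the combination 5 were listed, all lower: CDK1, the kinase that CDC25C activates (-1.51), PBK (-1.49), PLK4, the kinase of centriole duplication (-1.36), HASPIN, which marks histone H3 for Aurora B (-1.06), and MASTL, which restrains the phosphatase that opposes CDK1 (-1.02). CDK1 had 814 ± 54.3 with the combination and 2311 ± 302 with DMSO (SD, n = 3 each). Beside TTK, PBK was the only kinase of these in both tables, which share the DMSO libraries. AURKB and BUB1B, the nearest relatives of AURKA and BUB1, were in none of the tables.

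Of 19 relatives of the members by family none was listed with ezetimibe. With the combination PLK4 was lower, and PLK3, a stress-induced relative of PLK1 (1105 ± 148 with the combination and 259 ± 28.5 with DMSO, SD, n = 3 each, log2 2.09), and NEK8, a kinase of cilia (358 ± 38.8 with the combination and 121 ± 20.6 with DMSO, log2 1.57), were higher. CDC25A and CDC25B were in none of the tables.

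Of 30 partners and substrates of the members most were not listed: 5 were lower with ezetimibe and 9 with the combination, and 0 were higher, with median log2 fold changes of -1.07 and -1.14. With ezetimibe they were NDC80, a kinetochore protein (-1.23), CCNF, a cyclin of a ubiquitin ligase (-1.12), CDCA8, a subunit of the Aurora B complex (-1.07), HMMR, a spindle protein (-1.04), and TPX2, which activates AURKA (-1.03). TPX2 had 2746 ± 152 with ezetimibe and 5617 ± 172 with DMSO (SD, n = 3 each), while AURKA itself stood at 41.9% of DMSO. The 4 largest changes with the combination were those of FBXO5, an inhibitor of the anaphase-promoting complex (-1.49), CCNF (-1.36), KNL1, the kinetochore scaffold that TTK phosphorylates and BUB1 binds (-1.30), and BIRC5, a subunit of the Aurora B complex (-1.27). Cyclin B1, the partner of CDK1, was also lower with the combination (CCNB1, -1.03).

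Of 19 genes of the transcription control of G2 and M phase and its E2F and CDK inhibitor side, 0 were listed with ezetimibe. With the combination 7 were lower, 1 was higher and the others were not listed. The lower ones were E2F8 (-2.78), E2F1 (-2.03), TFDP1, the partner of E2F proteins (-1.81), MYBL2, which encodes B-MYB (-1.69), E2F7 (-1.59), FOXM1 (-1.36) and RBL1, a pocket protein of the RB family (-1.23). MYBL2 had 1922 ± 245 with the combination and 6190.0 ± 308 with DMSO, and FOXM1 had 1866 ± 57.2 with the combination and 4784 ± 2.81 with DMSO (SD, n = 3 each). The higher one was CDKN1A, the CDK inhibitor p21 (4770.3 ± 667 with the combination and 1846 ± 139 with DMSO, SD, n = 3 each, log2 1.37).

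Of 24 spindle and kinetochore genes 10 were lower with ezetimibe (median log2 -1.17) and 13 with the combination (median -1.53), and none was higher. The 4 largest changes with ezetimibe were those of DLGAP5 (-1.38), a spindle protein and substrate of AURKA, CENPE (-1.33), TOP2A, the topoisomerase of mitotic chromosomes (-1.24), and NUSAP1, which binds spindle microtubules (-1.23). With the combination they were those of CENPI (-2.22), SPC25 (-2.02), both of the kinetochore, ANLN, a protein of the cleavage furrow (-1.82), and TOP2A (-1.76). Of 37 genes of S phase 0 were listed with ezetimibe and 23 were lower with the combination (median -1.54), led by UHRF1, E2F2, CCNE2 and CCNE1. Of 13 genes of the G2 checkpoint 0 were listed with ezetimibe, and with the combination 4 were higher and 2 lower. The 4 largest changes were those of GADD45A (4.28), GADD45G (3.02) and GADD45B (2.63), stress-induced inhibitors of growth, and CLSPN, a replication checkpoint protein (-1.89). For comparison, the median over all genes listed as lower was -1.19 with ezetimibe and -1.44 with the combination. These lists were chosen with earlier results of these data known, and some genes are in more than 1 list, such as PLK4, E2F1, CDKN1A and CLSPN.

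**Figure D4:**
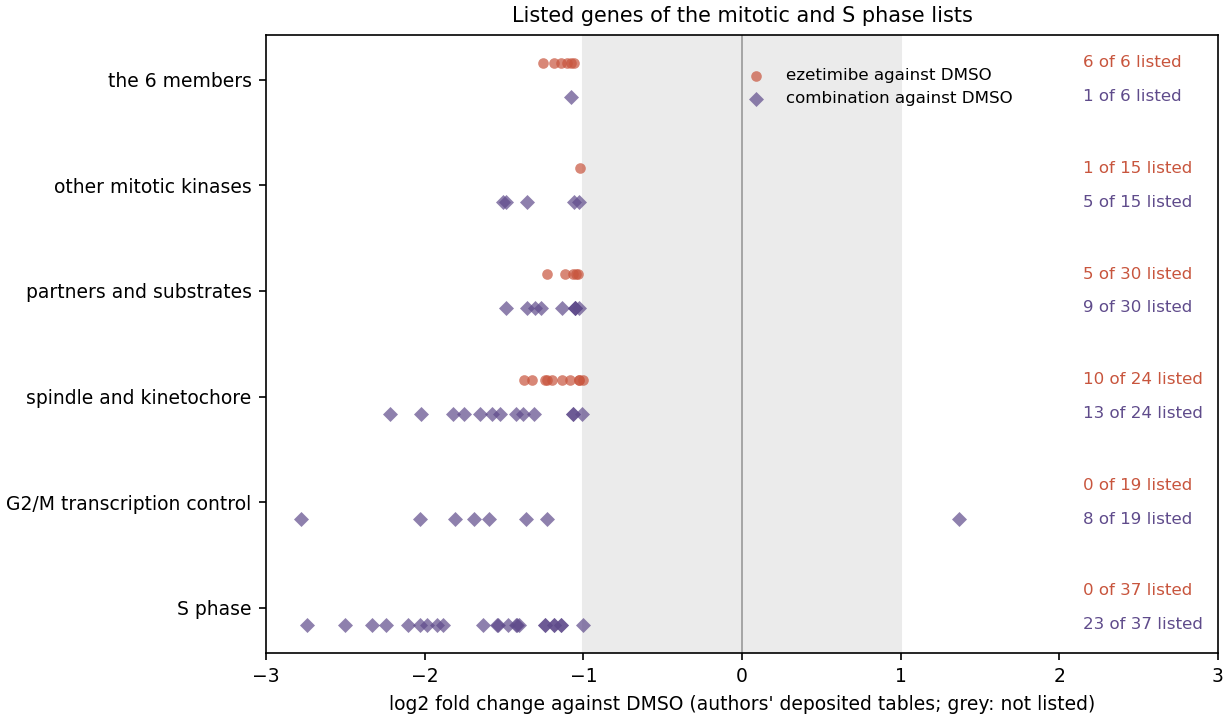
The authors' deposited log2 fold change against DMSO (horizontal axis) of each listed gene of the 6 members and of 5 gene lists, with circles for ezetimibe and diamonds for the combination; the grey band holds values the tables do not list. The members, taken from these tables, stand at 6 of 6 with ezetimibe and 1 of 6 with the combination, and S phase genes stand at 0 of 37 with ezetimibe and 23 of 37 with the combination.

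The genes most like the members were taken by their profile, the log2 value centred on DMSO, and the root mean square difference over libraries measured the likeness. In the ezetimibe table, over its 6 libraries, 269 protein-coding genes averaging 50 or more were compared with the mean profile of the members. The nearest were NCAPG, a subunit of condensin (0.04), CKAP2L, a spindle protein (0.05), SH3GL2, an endophilin of membrane traffic (0.05), KIF20B, a mitotic kinesin (0.06), and CDCA2, a phosphatase subunit of mitotic exit (0.06). NCAPG had a mean log2 difference of -1.14 between ezetimibe and DMSO. The members themselves lay between 0.01 (BUB1) and 0.18 (CDC25C) from their own mean. Over the 9 libraries of both tables the nearest of 248 genes to TTK were NCAPG (0.10), KIF11, the spindle motor Eg5 (0.15), DEPDC1 (0.16), SH3GL2 (0.17) and DEPDC1B (0.20). These are descriptions of likeness over few libraries that share the DMSO cells.

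The label of the cell type could be checked only in part, since the tables hold called genes. Of 6 epithelial markers 1 was listed, KRT7, as higher with the combination at a low level (38.7 ± 9.22 against 3.82 ± 2.40 with DMSO, SD, n = 3 each). Of 8 mesenchymal markers 2 were listed, both lower with the combination: COL1A1 (262 ± 15.2 against 1021 ± 158 with DMSO) and PDGFRB (381 ± 34.1 against 1092 ± 43.7 with DMSO). Of 4 endothelial markers CDH5 was listed, lower with ezetimibe at 10.1 ± 3.38 against 26.9 ± 10.3 with DMSO, and of 4 immune markers none was. Whether other cells contributed to the levels of the members was not tested. In the annotation used (GENCODE 29, whose positions equal the deposited ones for 6 of 6 members) PLK1 overlaps ERN2 and an antisense gene, CDC25C overlaps FAM53C on the other strand and NEK2 overlaps a processed pseudogene, FDPSP8, on the same strand. The labels and headers do not say whether counting used strand, so reads of these overlaps cannot be told apart. AURKA, BUB1 and NEK2 have pseudogenes by name elsewhere (AURKAP1 and AURKAP2, BUB1P1, NEK2P2 and NEK2P4) that could take or give reads. The type of these pseudogenes was not looked up.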

How the data were processed

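Reads were handled with featureCounts 1.5.0-p3, HISAT2 2.0.5 and fastp on hg38, per the submitters' processing notes. The authors' comparison tool is not stated there or in the headers. Per the file headers, the authors deposited a normalised signal per library, a log2 fold change, a p-value and an adjusted p-value per gene, and the gene length in bases. The deposited signal was read counts divided by a factor per library (0.896 to 1.12, set separately in each table); 100% of the values came out whole within 0.01. Listed genes held 40113 to 108822 reads per library in the fenofibrate table, 185127 to 339263 in the ezetimibe table and 2550718 to 3265200 in the combination table. The total depth is unknown. Every pair of replicates differed by more than sampling noise (chi-square per gene of 2.28 or more).

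Limma 3.58.1 (R 4.3.3, with trend) was fitted on log2 of the value plus 1 over each whole table, with Benjamini-Hochberg adjustment, and gave the standard errors. The contrast of combination and ezetimibe used the 9 libraries of the genes in both tables. On recovered reads of the combination table, edgeR 4.0.16 called 3508 and DESeq2 1.42.0 called 3506 of 3508 genes at an adjusted p under 0.05, which the authors' own selection of these genes makes near certain. The fits were tested on simulated data. With 3 against 3 libraries the smallest 2-sided p of an exact permutation test is 0.1, and no such test was made.

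The authors adjusted over about 12215 (fenofibrate), 13596 (ezetimibe) and 19944 (combination) genes, inferred from ranks; 55% of 20, 80.6% of 180 and 73.4% of 1212 p-values gave a whole rank within 0.02. The members and lists were chosen with earlier results of these data known. Named genes are the 6 members, every listed gene of the lists of other kinases, relatives and transcription control, the 4 largest changes of each other list in a table, and the 5 nearest profiles; TPX2, CCNB1, the relatives that no table lists and the cell type markers were named after their values were seen. Libraries were not paired by replicate number in the main fits, and whether the numbers mark shared cultures is unknown.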

Additional observations from a re-analysis of the deposited data

Results flagged for a closer look

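Of 10 genes of the members and lists in both tables, of which TTK is the single member, 3 list genes differed between the combination and ezetimibe (limma, adjusted over 359 genes). Limma called 63.2% of all genes in both tables and 50% of those listed as lower in both, so 3 of 10 is no excess, and genes that fell less with the combination are missing from this contrast. The log2 difference of TOP2A, combination minus ezetimibe, was -0.54 ± 0.15 (2881 ± 710.4 with the combination and 4104 ± 175 with ezetimibe, SD, n = 3 each, limma adjusted p = 0.00595), and combination replicate 1, at 2072, was the lowest. Without that library the TOP2A difference was -0.32 (limma adjusted p = 0.00231). The log2 difference of PBK was -0.47 ± 0.11 (625 ± 19.9 with the combination and 866 ± 70.2 with ezetimibe, SD, n = 3 each, limma adjusted p = 0.00184). The log2 difference of SPC25, a kinetochore protein, was -0.88 ± 0.14 (121 ± 15.9 with the combination and 224 ± 23.7 with ezetimibe, SD, n = 3 each, limma adjusted p = 0.000109). All 3 combination libraries lay below all 3 ezetimibe libraries in each of these genes. The genes were taken for their calls on these same libraries, so this adds nothing to the calls. The share of all 359 genes without overlap was not counted. Groups of 3 libraries were too small to look for single outlying samples by the test used.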

How the results depend on the processing

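The tables hold only genes that the authors had called, so calling them again is near certain to succeed and shows no robustness. The counts of genes called lower were between 8 and 9 with fenofibrate, 103 and 105 with ezetimibe and 1388 and 1450 with the combination under the alternatives tried: pseudocounts of 0.5 and 5, genes with a mean of at least 10, limma without trend, the replicate block, leaving out each library, and, for the combination table, edgeR and DESeq2. Under the pseudocounts the log2 differences of the members against DMSO moved by less than 1 SD. The block and leaving out each library cannot show robustness by this measure. The replicate block leaves the difference between balanced groups unchanged, and leaving out 1 of 3 libraries cannot move it by 1 SD. With 1 library left out PLK1 ranged from -1.11 to -1.003, AURKA from -1.28 to -1.24, BUB1 from -1.19 to -1.08, NEK2 from -1.28 to -1.09 and CDC25C from -1.30 to -1.002 with ezetimibe, and TTK from -1.14 to -0.91 with ezetimibe and from -1.15 to -0.91 with the combination. The TTK difference between combination and ezetimibe ranged from -0.03 to 0.04, and the calls of that contrast from 207 to 235 around 227. The replicate block could not change the TTK difference between combination and ezetimibe, because every group holds the same replicate numbers. Its standard error was 0.14 with the block and 0.13 without it. The deviations of same-numbered treated and DMSO libraries had correlations from -0.327 to 0.157. Between differently numbered libraries of the combination table they ran from -0.333 to 0.338. Combination and ezetimibe libraries were not compared in this way. Whether same-numbered libraries share a culture or batch cannot be told from these values. For the 9 list genes in both tables, whose alternatives were added after seeing the data, only CCNF changed its call: without combination replicate 1 it passed (log2 -0.38, limma adjusted p = 0.00125). edgeR and DESeq2 on the other fits and a rescaling by median ratios were not run. CDC25C had the fewest reads of the members, and unlisted members have no value at all.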
